A study of Mus musculus with 6 samples.

Results

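The vascular endothelial growth factor (VEGF) family was followed as 9 genes chosen by name: the 4 ligands Vegfa, Vegfb, Vegfc and Pgf, the 3 receptor tyrosine kinases Kdr, Flt1 and Flt4, and the 2 coreceptors Nrp1 and Nrp2. All 9 were found by symbol among the 24421 genes listed in the deposited files, and all 9 were among the 12892 genes with enough counts for testing. Under hydrostatic pressure the ligand genes Pgf, Vegfa and Vegfc rose and Vegfb fell. Among the receptor genes Flt1 rose and Kdr and Flt4 fell, and the coreceptor genes moved apart, with Nrp2 higher and Nrp1 lower.

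VEGF ligands are secreted dimers that bind receptor tyrosine kinases on endothelial cells. VEGF-A binds the receptors encoded by Flt1 (VEGFR1) and Kdr (VEGFR2), and VEGFR2 carries most of its signal for growth, migration and permeability, whereas VEGFR1 binds VEGF-A tightly but signals weakly. VEGF-B and placental growth factor (Pgf) bind VEGFR1 and not VEGFR2, and VEGF-C binds the receptor encoded by Flt4 (VEGFR3) and, once processed, VEGFR2. Neuropilins lack a kinase of their own. They hold VEGF ligands for the receptors and also bind class 3 semaphorins, neuropilin 1 chiefly with VEGF-A and VEGFR2 and neuropilin 2 chiefly with VEGF-C and VEGFR3. In the liver, sinusoidal endothelium depends on VEGF-A for its fenestrae and is known to express Flt4 although it is not lymphatic.

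The series measured polyadenylated RNA in primary mouse liver sinusoidal endothelial cells of genotype "wild", selected with beads against CD146, an endothelial surface protein, from liver suspensions depleted of hepatocytes, dead cells and erythrocytes. For 8 h the 3 pressure samples were under hydrostatic load that cycled at 0.01 Hz, from 101 kPa to 135 kPa in absolute terms, and the 3 control samples are titled as controls. All were plated on collagen I overnight and serum-starved for 6 h, and no strain, sex, age or pooling is labelled. All 6 share 1 batch label. No duration or handling over the loading period is labelled for the controls, so a difference in handling cannot be told apart from pressure. Whether the libraries of a group stem from different animals or dishes is not labelled either, and the p-values therefore reflect spread among 6 libraries that may be purely technical.

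The libraries summed to 12922959 (pressure library 3) up to 18655749 counts (control library 1). The 9 genes took 0.285% to 0.34% of counts in pressure libraries and 0.236% to 0.253% in control libraries. Most of these counts were of Nrp2 (26309 to 44713 in pressure, 18865 to 25064 in control libraries). The share therefore mainly follows that gene and does not describe the family as a whole. Pressure library 3 stood apart, with correlations of log CPM to the other pressure libraries of 0.9868 and 0.9894, where the other pairs within a group gave at least 0.9941. Scaling by library totals alone, without the TMM composition factors used here, lowered the log2 fold change of the median gene by 0.213 and upper-quartile scaling lowered it by 0.114. With totals alone 3129 genes were called higher and 5887 lower, against 4347 higher and 4524 lower as reported. The labelled cell type was present by its markers: 9 general endothelial genes, Pecam1 and Cdh5 among them, summed to 5114 to 5706 CPM (counts scaled to the library size) in pressure libraries and 5478 to 5815 CPM in control libraries, with 0 higher and 5 lower. Of 10 sinusoidal markers 7 fell and 0 rose, with sums of 2955 to 3263 CPM in pressure and 4853 to 5000 CPM in control libraries. Beside these marker counts and those that follow, 33.7% of all tested genes were called higher and 35.1% lower.

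Transcripts listed as markers of other cells were also counted. The 11 Kupffer cell and macrophage markers summed to 5496 to 5975 CPM in pressure and 5757 to 6339 CPM in control libraries, with 2 higher and 2 lower. Sums were lower for markers of the remaining cell types. The 10 stellate and mural markers summed to 153 to 165 CPM in pressure and 133 to 139 CPM in control libraries (9 tested, 2 higher, 4 lower). For 10 hepatocyte markers the sums were 23.7 to 28.1 CPM in pressure and 16.1 to 20.2 CPM in control libraries (6 tested, 2 higher, 0 lower). For 5 cholangiocyte markers they were 9.22 to 12.1 CPM in pressure and 5.22 to 5.28 CPM in control libraries (3 tested, 3 higher, 0 lower). The 4 lymphatic markers summed to 18.2 to 26.5 CPM in pressure and 24.4 to 29.2 CPM in control libraries (3 tested, 0 higher, 0 lower). The 8 lymphocyte markers summed to 2.78 to 4.74 CPM in pressure and 3.47 to 3.85 CPM in control libraries (2 tested, 0 higher, 1 lower). The neutrophil markers summed to 4.11 to 5.57 CPM in pressure and 8.85 to 10.9 CPM in control libraries (1 tested, 0 higher, 1 lower), with S100a9 at 0 in every library. What part these cells had in the results below was not tested. In such bulk samples fewer cells of a type and less RNA per cell cannot be told apart.

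Levels are given as CPM scaled with TMM factors, and changes as log2 fold change of pressure over control with the standard error (SE) from edgeR's quasi-likelihood test. A gene is called at an adjusted p under 0.05 over all 12892 genes. All 9 genes were called, 5 higher and 4 lower, in a comparison in which 68.8% of all genes were called (33.7% higher and 35.1% lower). The groups did not overlap for any of the 9, as was true of 71.9% of all genes. A change of at least 2-fold was reached by 4 of the 9, namely Pgf, Vegfa, Vegfb and Nrp2, against 23.3% of all genes. With so many genes called, a count of called members is not particular to this family, and the directions and sizes below carry the description.

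**Figure D1:**
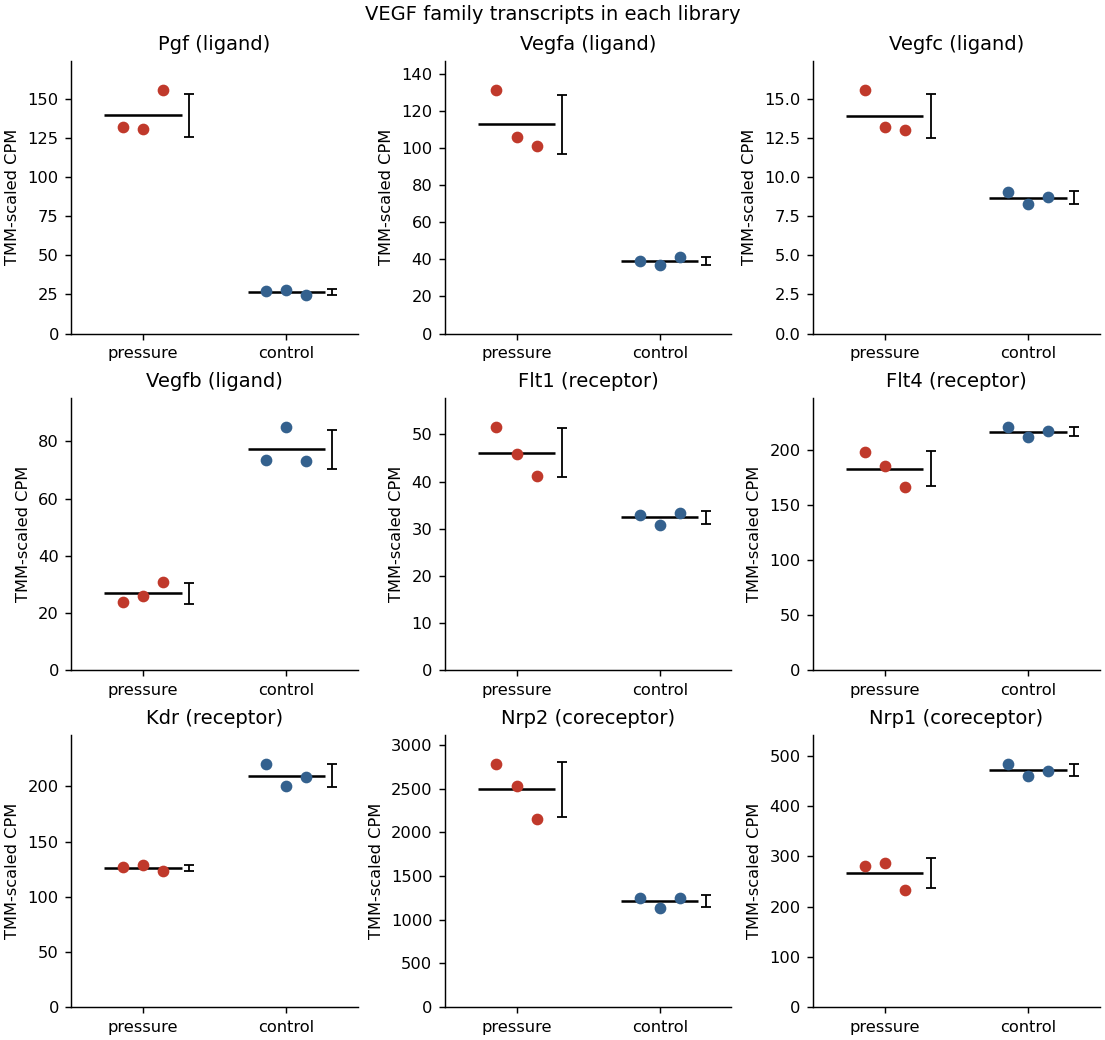
TMM-scaled CPM (y axis, from 0 in each panel) of the 9 VEGF family genes in the 3 pressure libraries (red) and the 3 control libraries (blue), with libraries 1 to 3 from left to right in each group. Lines are group means and bars beside them the SD; in no panel do the groups overlap, and pressure lies above control for Pgf, Vegfa, Vegfc, Flt1 and Nrp2.

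In GRCm38 (GENCODE M21), the build named mm10 in the submitters' processing notes, Kdr (75932827 to 75978458, minus strand) and Flt1 (147561604 to 147726011, minus strand) both lie on chromosome 5 and moved apart, and Vegfc (54077606 to 54187096, plus strand) and Nrp1 (128358604 to 128503363, plus strand) both lie on chromosome 8 and moved apart. The others are on separate chromosomes: Vegfa on 17 (46016993 to 46032369, minus), Vegfb on 19 (6982473 to 6987651, minus), Pgf on 12 (85166635 to 85177790, minus), Flt4 on 11 (49609263 to 49652739, plus) and Nrp2 on 1 (62703285 to 62818695, plus). All 9 are protein-coding, the spans cover exons, introns and untranslated regions, and no other annotated gene shares exonic bases with a member except Mir1903, which shares 80 bases with Nrp1. Deposited values were not whole in 4 of 6 libraries for Nrp1 and in 5 of 6 for Nrp2, so part of their reads may be shared with other features. Mir1903 is among the genes that the files list, but the files do not say which features share reads. Counts per gene do not separate isoforms such as the secreted form of VEGFR1 that Flt1 also encodes.

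The bases upstream of the start are shown for 2 of the pairs that went opposite ways, the ligands Vegfa and Vegfb and the coreceptors Nrp2 and Nrp1. They are RefSeq promoter windows of GRCm38.p6, read 5′ to 3′ on the gene's strand and, except for Nrp2, ending just before the RefSeq start: Vegfa chr17:46032378-46032627 (minus), Vegfb chr19:6987652-6987901 (minus), Nrp2 chr1:62703067-62703284 (plus, 218 bases, ending where the GENCODE exon begins) and Nrp1 chr8:128358823-128359072 (plus, within the longer GENCODE gene but in no exon). Capitals mark GC boxes (GGGCGG) and the G form of the hypoxia response element core (GCGTG) on either strand; neighbouring matches can run together or share a base.
Vegfa: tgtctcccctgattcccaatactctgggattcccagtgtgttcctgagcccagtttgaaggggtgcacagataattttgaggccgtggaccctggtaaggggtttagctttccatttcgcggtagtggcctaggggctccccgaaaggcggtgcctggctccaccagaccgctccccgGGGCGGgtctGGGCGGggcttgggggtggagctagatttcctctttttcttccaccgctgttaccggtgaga
Vegfb: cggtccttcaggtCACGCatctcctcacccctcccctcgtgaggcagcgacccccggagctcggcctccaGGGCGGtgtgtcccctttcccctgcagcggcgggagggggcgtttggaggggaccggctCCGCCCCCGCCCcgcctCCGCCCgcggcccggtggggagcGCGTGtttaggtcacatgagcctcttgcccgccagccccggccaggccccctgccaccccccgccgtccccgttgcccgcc
Nrp2: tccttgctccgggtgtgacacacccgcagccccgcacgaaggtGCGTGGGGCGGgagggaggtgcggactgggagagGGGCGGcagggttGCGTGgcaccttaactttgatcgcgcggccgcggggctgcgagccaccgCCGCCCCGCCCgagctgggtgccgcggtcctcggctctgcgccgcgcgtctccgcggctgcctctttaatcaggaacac
Nrp1: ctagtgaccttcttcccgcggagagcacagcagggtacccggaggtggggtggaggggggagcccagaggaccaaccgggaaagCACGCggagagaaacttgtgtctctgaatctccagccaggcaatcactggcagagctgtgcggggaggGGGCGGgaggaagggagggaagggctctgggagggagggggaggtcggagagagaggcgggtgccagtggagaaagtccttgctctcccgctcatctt

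In these printed stretches GC boxes numbered 2 for Vegfa, 4 for Vegfb, 4 for Nrp2 and 1 for Nrp1, and GCGTG cores 0 for Vegfa, 2 for Vegfb, 2 for Nrp2 and 1 for Nrp1. Over the full 250 bases, the first RefSeq window of each of the 9 genes held at least 1 GC box, as did 59.2% of the windows of 9696 tested genes and 32.7% of all 32841 windows. A GCGTG core stood in 6 of these 9 windows, against 45.5% of tested genes. Among these 9, the windows of Flt4 and Pgf lay wholly in GENCODE exons of the gene (250 of 250 bases each). Those of Nrp2 and Kdr did so in part (32 and 3 bases). The letters ACGTG (the A form of the hypoxia core), TGANTCA (AP-1), and TGATGNAA (C/EBP-ATF) and the NF-kB motif, searched on both strands, were in none of the 9 genes' first windows and in 21.8%, 4.46%, 1.95% and 4.65% of those of tested genes. RefSeq gives a second window for Vegfa, with 1 GC box, 1 ACGTG and 1 GCGTG, and for Pgf, with 0 matches to any of these motifs. Both second windows lie inside the gene. Of their 250 bases, 218 of the Vegfa window and all 250 of the Pgf window are in GENCODE exons. These matches describe the letters of short windows only. Members that rose and members that fell both held GC boxes.

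Pgf, which encodes placental growth factor, made the largest change of the family. Its level was 132, 130.9 and 155 CPM in the 3 pressure libraries, against 27.03, 27.7 and 24.4 CPM in the 3 control libraries. The lowest pressure library was thus far above the highest control library, and pressure library 3 was the highest. The log2 fold change was 2.40 ± 0.098 (adjusted p = 5.64e-08), which ranked 330 among the 12892 genes by size.

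Vegfa, the main ligand of VEGFR2, stood at 131, 106 and 101 CPM in pressure libraries and at 39.0, 37.1 and 41.2 CPM in control libraries. Pressure library 1 was the highest, and pressure libraries spread more than controls (113 ± 16.1 CPM and 39.1 ± 2.02 CPM, SD, n = 3 each). On the log2 scale it was higher by 1.53 ± 0.11 (adjusted p = 8.77e-07). The counts behind these levels were 1239 to 2109 in pressure and 623 to 780 in control libraries, so counting error was small beside the difference.

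Vegfb, which encodes a ligand of VEGFR1 linked to lipid handling in endothelium, moved the other way by nearly the same size. It had 23.8, 25.9 and 30.9 CPM in pressure libraries and 73.4, 85.0 and 73.2 CPM in control libraries. Control library 2 was the highest, and no pressure library came near the controls. Its log2 fold change was -1.53 ± 0.11 (adjusted p = 1.11e-06).

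Vegfc, the ligand of VEGFR3, was the ligand with the lowest level. It had 15.6, 13.3 and 13.02 CPM in pressure libraries, from 159 to 250 counts, and 9.09, 8.27 and 8.72 CPM in control libraries, from 132 to 182 counts. The groups stayed apart, and the log2 fold change was 0.68 ± 0.12 (adjusted p = 4.35e-04). The remaining ligand gene, Figf, which encodes VEGF-D and was not one of the 9, had 10.5, 8 and 1 counts in pressure libraries and 13, 12 and 15 in control libraries, and was not called (log2 fold change -0.81 ± 0.48, adjusted p = 0.154).

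Kdr, the gene of VEGFR2, was at 127, 129 and 123 CPM in pressure libraries and at 221, 200.5 and 208.5 CPM in control libraries. The pressure libraries lay close together (126 ± 2.89 CPM, SD, n = 3), and every one was below every control library. The log2 fold change was -0.73 ± 0.072 (adjusted p = 8.11e-06).

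Flt1, the gene of VEGFR1, which binds VEGF-A, VEGF-B and placental growth factor, was the receptor gene that rose. It had 51.6, 45.8 and 41.1 CPM in pressure libraries and 33.0, 30.8 and 33.4 CPM in control libraries. Pressure library 3 was nearest to the controls without reaching them. Its rise on the log2 scale was 0.51 ± 0.10 (adjusted p = 9.65e-04), and 0.30 with library totals alone.

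Flt4, the gene of VEGFR3, had the smallest change of the 9. It stood at 198, 185.5 and 167 CPM in pressure libraries and at 221, 212 and 218 CPM in control libraries, so the groups were apart by less than the spread within the pressure group. The log2 fold change was -0.24 ± 0.080 (adjusted p = 0.0191), and -0.46 with library totals alone. The call was lost without control library 1 (adjusted p = 0.0679) and without control library 3 (adjusted p = 0.0535).

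Nrp2, the gene of neuropilin 2, was by CPM the most abundant of the family, above 99.8% of tested genes. It had 2786, 2534 and 2154 CPM in pressure libraries and 1252, 1132 and 1246 CPM in control libraries. All pressure libraries were higher, and pressure library 3 was the lowest of them. This was a log2 fold change of 1.04 ± 0.092 (adjusted p = 3.91e-06).

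Nrp1, the gene of neuropilin 1, went the opposite way. It had 281, 287 and 232 CPM in pressure libraries and 485, 461.5 and 471 CPM in control libraries. The control libraries were close together (473 ± 11.8 CPM, SD, n = 3) and all above the pressure libraries. This was a log2 fold change of -0.82 ± 0.087 (adjusted p = 1.31e-05).

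**Figure D2:**
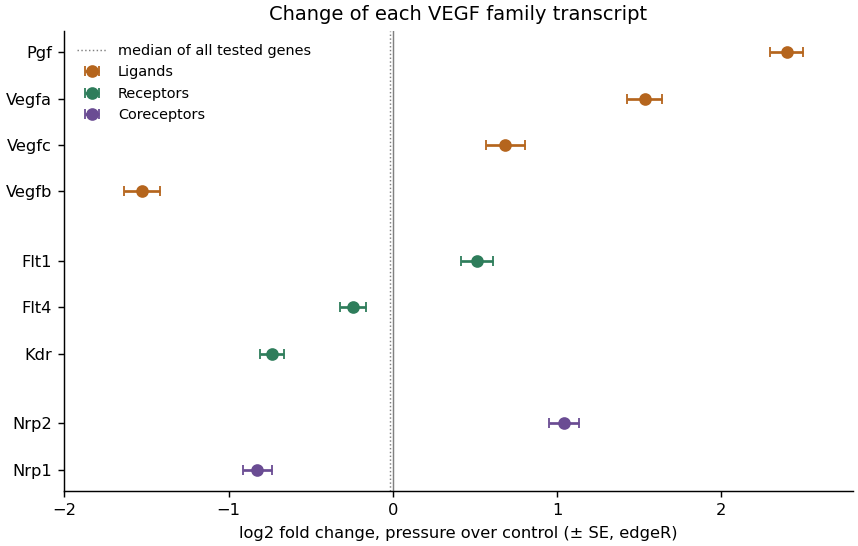
Log2 fold change of pressure over control (x axis; points are edgeR estimates, bars the SE) for the 4 ligands, 3 receptors and 2 coreceptors (rows), with the median of all tested genes as a dotted line. Ligands span the widest range, from -1.53 for Vegfb to 2.40 for Pgf, and Flt4 at -0.24 lies closest to 0.

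Set side by side by role, 3 of 4 ligands were higher and 1 was lower, with a median log2 fold change of 1.11. Of the receptors and coreceptors together 2 were higher and 3 lower, with a median of -0.24, and the median of all tested genes was -0.015. The sizes also differed, since 3 of the 4 ligands but only Nrp2 of the other 5 genes changed at least 2-fold. This comparison is a description, because the genes are few and are not replicates of a role. Pressure library 3 was the pressure library nearest to the control mean for 5 of the 9 genes (Vegfa, Vegfb, Vegfc, Flt1 and Nrp2) and the farthest for the other 4 (Pgf, Kdr, Flt4 and Nrp1). Without it all 9 were still called in the same directions, with log2 fold changes of 2.31 for Pgf, 1.61 for Vegfa and 1.14 for Nrp2.

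To compare genes with each other, levels were divided by exonic length (CPM per kilobase, RPKM, from the same TMM scaling). The make-up of the ligand transcripts differed between the groups. Pgf held 49.5% ± 2.95 of the summed ligand RPKM in pressure libraries and 13.02% ± 0.620 in control libraries (SD, n = 3 each). Vegfa held 27.3% ± 4.12 in pressure and 13.1% ± 1.36 in control libraries. Vegfb held 17.3% ± 1.87 in pressure and 68.8% ± 1.97 in control libraries, so that it ranked behind Pgf and Vegfa under pressure and led in controls. The share of Vegfc, 5.89% ± 0.656 in pressure and 5.10% ± 0.502 in control libraries, overlapped between the groups. The order by RPKM under pressure was Pgf (48.0), Vegfa (26.4), Vegfb (16.7) and Vegfc (5.70), with no overlap between neighbours. In controls it was Vegfb (48.1), Vegfa (9.12), Pgf (9.10) and Vegfc (3.55), and Vegfa and Pgf overlapped there.

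Summed over the ligands, the per-length level was 97.3, 91.5 and 102 RPKM in pressure libraries and 67.9, 74.6 and 67.2 RPKM in control libraries. Summed over the 3 receptors it was 41.9, 40.2 and 36.9 RPKM in pressure libraries and 53.8, 50.3 and 52.0 RPKM in control libraries. The ligand sum was therefore higher and the receptor sum lower under pressure, without overlap in either case. The coreceptor sum, 264, 243 and 206 RPKM in pressure libraries and 155, 143 and 153 RPKM in control libraries, was higher as well, and Nrp2 made up 88.5% ± 0.587 of it under pressure and 67.9% ± 0.843 in controls. Among receptors Flt4 led with 56.1% ± 1.26 in pressure and 50.7% ± 0.655 in control libraries, followed by Kdr with 35.3% ± 1.70 in pressure and 44.7% ± 0.686 in control libraries, and Flt1 reached 8.60% ± 0.453 under pressure, against 4.61% ± 0.126 in controls. The order of Flt4 and Kdr in controls depended on the length used: divided by the longest transcript, Kdr held 47.3% ± 0.689 and Flt4 46.4% ± 0.640.

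**Figure D3:**
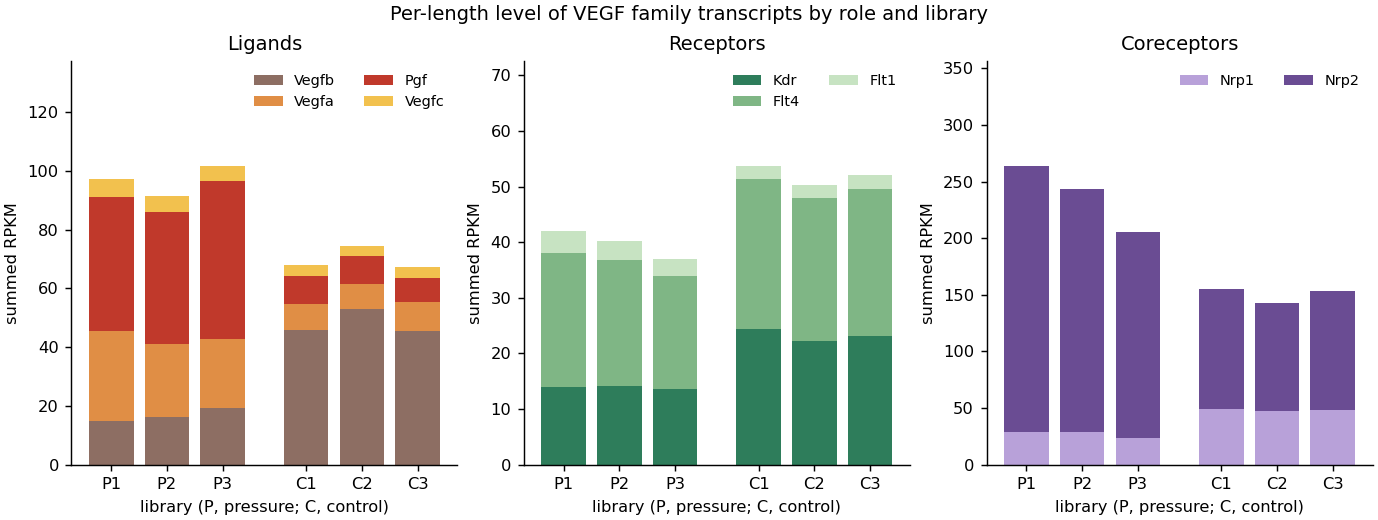
Summed RPKM (y axis, from 0) of the 4 ligands, 3 receptors and 2 coreceptors in each library (P1 to P3 pressure, C1 to C3 control), stacked by gene. Pgf and Vegfa make up most of the ligand bars under pressure and Vegfb most of them in controls, and Nrp2 makes up most of every coreceptor bar.

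Ratios of counts within a library do not depend on depth or scaling. The ratio of Nrp2 to Nrp1 counts was 9.92, 8.84 and 9.28 in pressure libraries and 2.58, 2.45 and 2.65 in control libraries, 3.65 times as high under pressure. The ratio of Pgf to Vegfb counts was 5.55, 5.04 and 5.03 in pressure libraries and 0.368, 0.326 and 0.334 in control libraries, 15.2 times as high. Both ratios were well apart between the groups and tight within them. The ratio of Flt1 to Kdr counts, 0.407, 0.356 and 0.334 in pressure libraries and 0.149, 0.154 and 0.160 in control libraries, was 2.37 times as high, and that of Vegfc to Flt4 counts was 1.90 times as high. The ratio of Vegfa to Vegfb counts was the most variable of these under pressure (5.52, 4.09 and 3.29, against 0.531, 0.437 and 0.562 in controls), with pressure library 3 the lowest.

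The groups of genes around the neuropilins had medians near that of all genes, 0.014 for semaphorins and 0.045 for plexins on the log2 scale. Of 7 class 3 semaphorins, the other ligands of neuropilins, 4 were tested, 1 rose and 1 fell (50% called, against 68.8% of all genes). Sema3f, a ligand of neuropilin 2, fell to 60.8 ± 5.23 CPM under pressure, against 98.7 ± 1.93 CPM in controls (log2 fold change -0.70 ± 0.083), and Sema3d rose by 0.48 ± 0.17 (adjusted p = 0.030), a call lost with DESeq2, with library totals alone, with upper-quartile scaling and without any 1 library other than pressure library 3. Of 5 plexins, the signalling partners of neuropilins, Plxna2 rose (293 ± 62.4 CPM in pressure, 187 ± 21.2 CPM in control libraries) and Plxnd1 fell (248 ± 13.2 CPM in pressure, 387 ± 16.4 CPM in control libraries), and 3 were not called (40% called, against 68.8% of all genes). With library totals alone, with upper-quartile scaling, with limma-voom or without pressure library 2, the number of lower plexins was 2. The added gene was Plxna3, at only 0.51 CPM in pressure and 1.02 CPM in control libraries on average. Without pressure library 3 the number of higher plexins was 2.

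Of 9 genes for the maturation of VEGF-C and VEGF-D, 7 were tested, 2 rose and 4 fell (85.7% called, against 68.8% of all genes, of which 33.7% rose and 35.1% fell). The proprotein convertase genes Furin and Pcsk7, whose products cleave the precursors, fell alike (-0.55 ± 0.095 and -0.55 ± 0.091). Ccbe1, whose product presents VEGF-C to its protease, had 2.00 ± 0.322 CPM in pressure and 3.19 ± 0.790 CPM in control libraries (adjusted p = 0.0320). That call was lost with DESeq2 (adjusted p = 0.0565) and without pressure library 1 (0.0571), pressure library 3 (0.0561) or control library 3 (0.127). The plasminogen activator genes Plat and Plau rose, Plat by 1.57 ± 0.15 and Plau by 0.54 ± 0.064.

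Among 18 genes of receptor partners and trafficking, 4 rose and 8 fell (66.7% called, near the 68.8% of all genes). Epn2, which encodes epsin 2, an adaptor for internalising VEGFR2, fell to 30.02 ± 3.73 CPM under pressure, against 139.7 ± 2.49 CPM in controls (-2.22 ± 0.099). Gipc1 and Myo6, whose products carry internalised receptor with neuropilin 1 inward, fell by 1.37 and 1.53 on the log2 scale. Itgb3, the integrin beta 3 gene, fell by 1.62. Efnb2, the gene of ephrin B2, which takes part in receptor internalisation, rose to 256 ± 53.0 CPM under pressure, against 60.8 ± 0.961 CPM in controls. With library totals alone 3 rose and 11 fell, and without pressure library 3, 6 rose and 8 fell.

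Of 48 genes that relay receptor signals, 47 were tested, 17 rose and 22 fell, with a median log2 fold change of -0.18 (83.0% called, against 68.8% of all genes, of which 33.7% rose and 35.1% fell). Shb, an adaptor that binds activated VEGFR2, rose to 85.6 ± 14.4 CPM under pressure, against 21.5 ± 1.95 CPM in controls, and the calcineurin subunit gene Ppp3ca rose by 0.85 ± 0.068 and Bcar1, the gene of the adaptor p130Cas, by 0.90 ± 0.10 on the log2 scale. Nos3, the endothelial nitric oxide synthase gene, fell by 1.56, Mapk3 (ERK1) by 1.32, Prkd2 by 1.30 and Pla2g4a, the cytosolic phospholipase A2 gene, by 1.77 on the log2 scale. Relay genes thus moved in both directions.

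Of 26 genes that VEGF-A is known to induce in endothelium, 23 rose and 1 fell, with a median log2 fold change of 0.88, beside 33.7% higher and a median of -0.015 over all genes. The list is a selection drawn up with results of these data known. Flt1, which rose, is in it, while Kdr, Nos3 and Itgb3, which fell, were placed only in other lists. Several members are also known targets of inflammatory signals, and whether VEGF-A had a part in these changes was not tested. Apln, the gene of apelin, a peptide made by endothelial tip cells, reached 382 ± 28.0 CPM under pressure, against 84.7 ± 7.84 CPM in controls. Plaur, the urokinase receptor gene, reached 382 ± 28.5 CPM under pressure, against 129 ± 10.2 CPM in controls, and Igfbp3, the gene of an IGF-binding protein, 21.8 ± 1.54 CPM under pressure, against 2.08 ± 0.199 CPM in controls. Sele, the E-selectin gene, rose by 4.08 ± 0.12, and Egr2, a transcription factor gene, was the member that fell (-0.90 ± 0.13). With library totals alone 21 rose and 1 fell, and with a minimum mean of 5 CPM 15 rose and 1 fell.

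**Figure D4:**
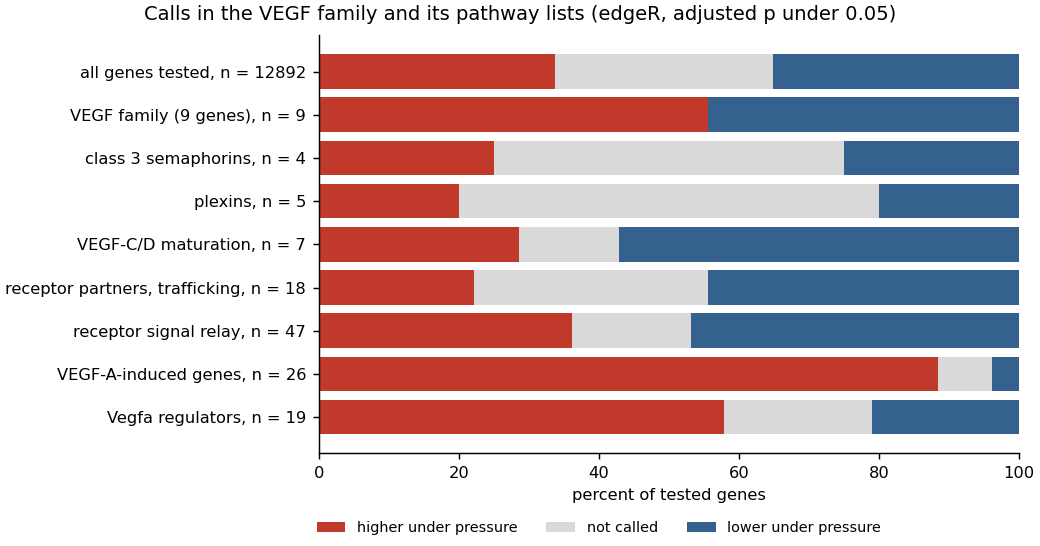
Percent of tested genes (x axis) called higher (red), not called (grey) or called lower (blue) under pressure, for all genes, the 9 VEGF family genes and 7 lists of related genes (rows, n genes tested). Calls are edgeR's at an adjusted p under 0.05; the list of genes induced by VEGF-A has the largest share of higher calls of the lists drawn, with 23 of 26.

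The genes most like 3 members were found by the Euclidean distance between mean-centred log2 CPM over the 6 libraries, among 12044 genes with no clone or predicted symbol. For Vegfa they were Ddx10 (distance 0.112), Tsr1 (0.127) and Nptxr (0.133), for Pgf Acot2 (0.108), Ppp1r15a (0.247) and Psat1 (0.285), and for Kdr Agk (0.044), Ccdc132 (0.077) and Fnbp1 (0.085). Their own log2 fold changes were 1.55, 1.48 and 1.55, then 2.38, 2.52 and 2.35, then -0.75, -0.69 and -0.69. With 2 groups of 3 libraries such a likeness is mainly a like difference between the groups.

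All 9 genes kept their direction when the analysis was repeated in 15 other ways. The log2 fold change of Pgf ranged from 2.19 to 2.44, that of Vegfa from 1.32 to 1.61, that of Vegfb from -1.74 to -1.44 and that of Nrp2 from 0.83 to 1.14. The call was kept by 8 of the 9 in every one, Flt4 being the exception named above.

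**Figure D5:**
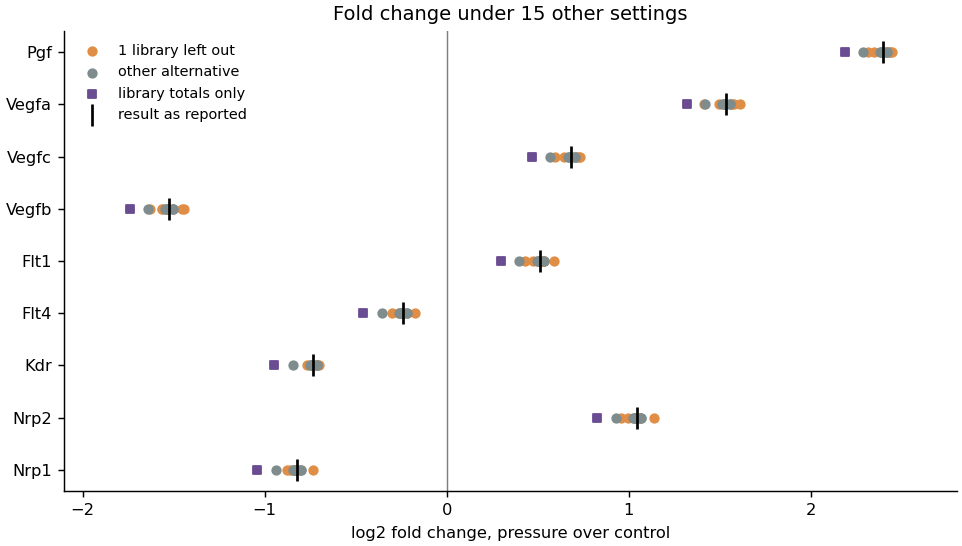
Log2 fold change of pressure over control (x axis) for the 9 genes (rows) as reported (bar), with 1 library left out (orange), with library totals only (purple squares) and under the other alternatives (grey). No gene crosses 0, and library totals only gives the lowest value for each gene.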

How the data were processed

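RNA from 3 pressure and 3 control samples, grouped by title, was read on a NovaSeq as single reads from a stranded mRNA kit, per the labels' protocols. The authors deposited 1 value per gene symbol in units of expected counts, some of them fractions. The submitters' processing notes name TopHat2 2.2.1, Cufflinks 2.2.1 and mm10; no source used here gives the counting tool, strand setting or annotation, and reads shared between genes cannot be told apart.

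Counts were rounded, filtered with filterByExpr (minimum count 10, minimum total 15) and scaled by TMM. Pressure was compared with control over 12892 genes by the two-sided quasi-likelihood F-test of edgeR 4.0.16 in R 4.3.3, with no covariates and Benjamini-Hochberg adjustment. The SE is the log2 fold change over the square root of F. The test was tested on simulated data. In that simulation far fewer genes changed than were called here, so it does not bear on the choice of scaling. RPKM used exonic lengths from GENCODE M21 (GRCm38). Promoter windows came from RefSeq (GRCm38.p6) and matched all 9 genes. Alternatives used DESeq2 1.42.0, limma 3.58.1 (voom), other scalings, filters and thresholds, unrounded values, a replicate block and leaving out each library.

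Members and lists were chosen with earlier results of these data known. Named were all members, any tested gene of lists of up to 9, up to 4 called genes of smallest p per direction with a mean of at least 5 CPM in longer lists, and the 3 genes closest to Vegfa, Pgf and Kdr. Of the genes that this rule names, 1 is not reported here.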

Additional observations from a re-analysis of the deposited data

How the results depend on the processing

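Of 135 recomputed fold changes of the 9 genes, 133 kept direction and call. The exceptions were Flt4 without control library 1 or 3, and its log2 fold change ranged from -0.30 to -0.18 when 1 library was left out. With library totals only, the log2 ratio of summed RPKM was 0.26 for ligands, -0.60 for receptors and 0.44 for coreceptors, against 0.47, -0.39 and 0.66 as reported, and no sum changed sign. At an adjusted p of 0.01, 5 members were higher and 3 lower.

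Whether the replicate numbers pair the samples could not be told, because each group has only 3 libraries. Deviations of same-numbered libraries correlated at 0.129, -0.230 and -0.134, and those of other-numbered libraries at -0.170 to 0.292. Only pressure library 1 correlated best with its own number. With the sample number as a replicate block 4069 genes were higher and 4315 lower, and 5 members were higher and 4 lower, while Sema3d and Ccbe1 were not called (adjusted p = 0.0582 and 0.0511).

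List counts stayed within 1.5 times of those reported in 192 of 210 recomputations. The others were semaphorins (1 or 0 higher), plexins (1 or 2 lower, 1 or 2 higher), regulators of Vegfa (11 higher, 7 under library totals only), and both VEGF-A-induced genes (23 or 15 higher) and maturation genes (4 or 2 lower) once a mean of 5 CPM was required, which tests fewer genes. The semaphorin count of 0 higher under that filter also came from Sema3d, which was not tested there. For the remaining ones the cause was not tested. Figf was tested on at most 15 counts a library, and among genes that failed the filter Ppargc1a had at most 4 and Adamts3 at most 1.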

Other observations

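Genes known to regulate Vegfa transcription or the decay of its mRNA moved in both directions. Of 20 listed, 19 were tested, 11 rose and 4 fell, with a median log2 fold change of 0.32 (78.9% called, against 68.8% of all genes, of which 33.7% rose and 35.1% fell), and with library totals only 7 rose and 5 fell. Atf4, the main transcription factor of the integrated stress response, reached 1520 ± 81.5 CPM under pressure, against 612 ± 29.0 CPM in controls (1.31 ± 0.069). Ern1, the gene of the unfolded protein sensor IRE1, rose by 0.94 ± 0.11, and Zfp36, whose product promotes the decay of AU-rich mRNAs, by 0.90 ± 0.12. Vhl, part of the ubiquitin ligase for HIF alpha subunits, rose by 0.80 ± 0.084, while Egln3, a prolyl hydroxylase gene often induced by hypoxia, fell to 4.08 ± 0.955 CPM under pressure, against 10.3 ± 1.03 CPM in controls, and Arnt, the HIF beta subunit gene, fell by 0.34. Hif1a, Egln1 and Egln2 of the same list, named after their values were seen, were also called higher (0.34 ± 0.077, 0.51 ± 0.078 and 0.46 ± 0.12). Esrra and Sp1 fell too (-0.98 ± 0.13 and -0.40 ± 0.097).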
